A study of Mus musculus with 20 samples.

Results

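The genes described here encode the proteins of the mitochondrial ribosome and carry symbols of the Mrpl and Mrps series. They were chosen by symbol alone: the series letters, a number and at most 1 closing letter. This rule took 78 of the 55367 symbols that were counted, 49 of them Mrpl and 29 Mrps symbols, a series named for the large and the small subunit. All 78 are annotated as protein coding, and they lie on 17 chromosomes. A total of 77 passed the filter on low counts, among 16598 genes that did. Mrpl53, the 1 member left out, had 1 read in all libraries together. Its gene model (GRCm38, chr6:83109040-83109939) shares 695 of 790 exonic bases with the model Gm42688 on the same strand.

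RNA was sequenced from the left atrium or left ventricle of C57BL/6J pups on postnatal day 4. From birth the pups had been kept in room air (21% oxygen) or in hyperoxia (100% oxygen), while the nursing dams were moved between both conditions every day. The 4 groups were room-air atrium, hyperoxic atrium, room-air ventricle and hyperoxic ventricle, with 5 libraries each from individual mice. The libraries are of poly(A) RNA from whole chambers and hold 26510081 to 38244117 counts.

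The mitochondrial ribosome translates the few mRNAs that mitochondrial DNA encodes, all of them for subunits of the respiratory chain and the ATP synthase. Its ribosomal RNAs come from mitochondrial DNA, but every one of its proteins is encoded in the nucleus, made in the cytosol and imported. Some of these proteins descend from bacterial ribosomal proteins, and others have no bacterial counterpart. The heart depends on mitochondrial translation, and inherited defects of several of these proteins, MRPL3 and MRPL44 among them, cause cardiomyopathy in infants.

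In levels, given throughout as CPM, which is the read count scaled to a common library size with TMM factors, the 78 genes together were lowest in the room-air atrium. Their summed level was 3145 ± 285 CPM (SD, n = 5) in the room-air atrium and 5842 ± 1283 CPM (SD, n = 5) in the room-air ventricle, 1.86 times as much. After hyperoxia it was 5000 ± 1515 CPM (SD, n = 5) in the atrium and 4919 ± 374 CPM (SD, n = 5) in the ventricle. The hyperoxic atria fell into a low and a high set. Libraries 1, 3 and 5 held 3701, 4144 and 3855 CPM, and libraries 2 and 4 held 6692 and 6609 CPM. Every hyperoxic atrium lay above every room-air atrium, which ranged from 2927 to 3565 CPM. The share of the Mrps symbols in the sum was a little higher in every atrium (31.55% to 32.96%) than in every ventricle (30.2% to 31.05%).

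The high libraries also stood apart in a property of all genes. For each library a length slope was computed over 11130 genes of at least 5 CPM: how log2 CPM, after subtracting the average of all libraries from that chamber, changes per doubling of exon length. A negative slope means that a library holds relatively more reads of short transcripts than the average of its chamber. The slopes therefore carry no average length difference between atrium and ventricle, and as a covariate they cannot adjust for one. In 3 libraries, called tilted below, the slope was under -0.2: hyperoxic atrium 2 (-0.295), hyperoxic atrium 4 (-0.290) and room-air ventricle 4 (-0.226). The other 17 ranged from -0.071 to 0.136. The mitochondrial ribosomal protein genes are short (median exon length 2394 bases, range 607 to 8631, against 3530 for all protein-coding genes). Of the 77 tested members 74 had both tilted hyperoxic atria above the other 3, and 71 had the tilted room-air ventricle above the rest of its group. Without the tilted libraries the summed level was 3900 ± 225 CPM (SD, n = 3) in the hyperoxic atrium and 5302 ± 500 CPM (SD, n = 4) in the room-air ventricle. The part of the slope in the results was not tested beyond the refits given beside them. In the ventricle the slopes of the room-air libraries (-0.226 to 0.025) and the hyperoxic libraries (0.038 to 0.099) do not overlap, so length slope and oxygen cannot be told apart there.

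**Figure D1:**
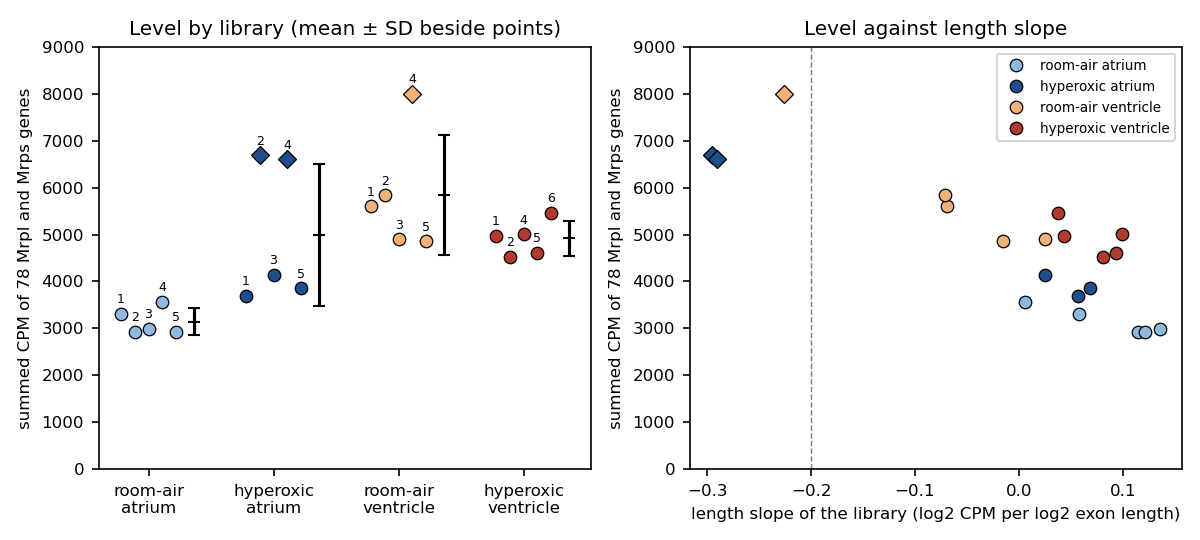
Left, summed CPM of the 78 genes in each library (numbered points) with the group mean ± SD beside them; right, the same sums against the length slope of the library (log2 CPM per log2 exon length). Diamonds are the 3 tilted libraries, left of the dashed line at -0.2: they hold the highest sums, and the 5 room-air atria hold the lowest (2927 to 3565 CPM).

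Levels of different genes were compared per kilobase of the longest coding transcript, as means over the 20 libraries. The median of the tested members was 34.1 CPM per kilobase, from 5.97 for Mrpl17 to 383 for Mrpl42. Mrpl12, which forms the flexible stalk that receives translation factors and also binds the mitochondrial RNA polymerase, stood at 167 CPM per kilobase. Over all annotated exons Mrpl12 was the highest at 143 CPM per kilobase and Mrpl23 the lowest of those tested at 2.07. The order depends on the length used, since Mrpl23 has 4883 bases of annotated exons and a longest coding transcript of 736 bases.

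Between the chambers in room air, the mitochondrial ribosomal protein genes were lower in the atrium almost without exception. By edgeR's quasi-likelihood test with Benjamini-Hochberg adjustment over all genes, 75 of 77 were lower at an adjusted p under 0.05, against 26.3% of all genes tested. The median log2 difference (atrium minus ventricle) was -0.82, against 0.03 over all genes, and the quartiles of the members were -1.05 and -0.67. For 74 members every atrium lay below every ventricle, against 21.4% of all genes. Mrps12 was 1 of 2 exceptions with a log2 difference of -0.25 (adjusted p = 0.307), and Mrps6 was the other and was higher in the atrium. For Mrps12 the direction turned and passed as higher in the atrium with the slope as covariate, at 0.25 (adjusted p = 0.0135), and with the length trend removed, at 0.33 (adjusted p = 0.00332). In whole tissue, fewer cells of a type and less RNA per cell cannot be told apart. Marker levels moved with the chambers: the summed CPM of 5 markers of cardiomyocytes of both chambers (Tnnt2, Actc1, Ttn, Myh6 and Ryr2) was 23970 to 30270 in the room-air atrium and 32180 to 43200 in the room-air ventricle. The summed CPM of 5 fibroblast markers was 2940 to 3664 and 1337 to 2052. Markers of macrophages (123 to 138 and 59.2 to 75.7 CPM), epicardium (227 to 361 and 49.0 to 133 CPM) and smooth muscle (375 to 482 and 274 to 332 CPM) also summed higher in the room-air atrium than in the ventricle. Those of endothelium (814 to 979 and 1249 to 1645 CPM) summed lower. Single markers did not all follow their sums. Wt1 of the epicardium (log2 difference -0.67, adjusted p = 2.33e-05) and Myh11 of smooth muscle (-1.94, adjusted p = 7.13e-06) were lower in the room-air atrium. Smtn of smooth muscle, Pecam1 and Tie1 of endothelium, and Myh6 and Ryr2 of cardiomyocytes did not pass. The part of these markers in the difference was not tested.

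The small subunit carries the decoding site. Mrps2, a counterpart of a bacterial protein, had the smallest p of the family for the chambers in room air. It stood at 32.9, 31.4, 31.2, 33.8 and 33.0 CPM in the atria 1 to 5 and at 56.4, 49.0, 49.9, 51.3 and 46.4 CPM in the ventricles. The groups are apart by more than their own width. Its log2 difference was -0.64 ± 0.07 (SE, adjusted p = 4.89e-08). Mrps27, a protein specific to mitochondria, stood at 36.7 to 43.5 CPM in the atria (median 37.4) and 59.8 to 75.1 CPM in the ventricles (median 67.7), a log2 difference of -0.76 ± 0.10 (SE, adjusted p = 1.93e-06). The model 6430562O15Rik on the opposite strand shares 506 exonic bases with Mrps27 and was also lower in the atrium (means of 3.11 and 22.7 CPM), and whether the counting used strand is not known here. Mrps5 was lower in the atrium by -0.35 (adjusted p = 8.22e-04), Mrps22 by -0.73 (adjusted p = 1.14e-04) and Mrps34 by -1.18 (adjusted p = 4.88e-05) on the log2 scale. Mrps34 shares 1309 exonic bases with Mapk8ip3 on the opposite strand, which had about the same level in both chambers (77.2 and 80.2 CPM). It also shares 763 exonic bases on the same strand with Nme3, which was at 0 CPM in each group. Reads of Mrps34 in these bases may have been left uncounted. The 3 genes of the Mrps18 family, which descend from 1 bacterial protein, were each lower in the atrium: Mrps18a by -1.13, Mrps18b by -0.61 and Mrps18c by -1.16 on the log2 scale. Mrps36, whose protein is now known as a subunit of the oxoglutarate dehydrogenase complex rather than of the ribosome, was lower by -0.60 (adjusted p = 3.50e-04), and by -0.13 with the length trend removed (adjusted p = 0.263).

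The large subunit carries the peptidyl transferase centre. Mrpl36, a small protein with a bacterial counterpart, stood at 20.7, 16.7, 15.8, 18.1 and 19.1 CPM in the room-air atria and 42.2, 45.1, 41.0, 68.7 and 40.7 CPM in the room-air ventricles. The highest value is the tilted ventricle, and the other 4 also exceed every atrium. Its log2 difference was -1.40 ± 0.17 (SE, adjusted p = 4.80e-07), and -1.23 without the tilted libraries. Mrpl36 shares 30 exonic bases on the opposite strand with Ndufs6, a subunit gene of respiratory complex I that was also lower in the room-air atrium (means of 106 and 501 CPM, log2 difference -2.24). Mrpl42, a mitochondria-specific protein, stood at 136 to 180 CPM in the atria (median 161) and 283 to 466 CPM in the ventricles (median 346), a log2 difference of -1.15 ± 0.16 (SE, adjusted p = 3.05e-06). Mrpl12 had the most negative difference of the family at -1.40 ± 0.23 (SE, adjusted p = 2.62e-05). Mrpl54 followed the same pattern with 42.8 to 58.4 CPM (median 48.5) against 95.6 to 182 CPM (median 109) and a log2 difference of -1.35. Mrpl3 and Mrpl44, the genes of cardiomyopathy named above, were lower in the atrium by less than these. Mrpl3, which sits near the catalytic centre, was lower by -0.33 (adjusted p = 0.00679). Mrpl44, an RNase III-like protein, was lower by -0.49 (adjusted p = 0.00443). Neither passed with the slope covariate, at -0.18 (adjusted p = 0.0668) and -0.20 (adjusted p = 0.0536). Mrpl58, which can free peptides from stalled ribosomes, was lower by -1.07 (adjusted p = 8.49e-05).

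The lower level ran through each of the 4 role classes, in which Mrps18a and Mrps30 are counted with the large subunit, where their proteins sit. All 30 large-subunit proteins with a bacterial counterpart were lower in the atrium (median log2 difference -0.82), as were 20 of 20 tested large-subunit proteins specific to mitochondria (median -0.88). So were 15 of 17 small-subunit proteins with a bacterial counterpart (median -0.92) and 9 of 9 small-subunit proteins specific to mitochondria (median -0.80). Over all genes tested, 26.3% were lower. Without the 3 tilted libraries 75 members were again lower (median -0.72), against 27.1% of all genes. In 4 fits that treat length in different ways (as designed, with the slope as a covariate, with the length trend of each library removed, and without the tilted libraries) 65 members were lower in every one, against 18.6% of all genes.

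Mrps6, a small-subunit protein with a bacterial counterpart, was the exception to this pattern. It stood at 47.8, 36.5, 37.4, 51.4 and 43.7 CPM in the room-air atria and at 30.1, 28.6, 22.4, 38.0 and 24.0 CPM in the room-air ventricles. The highest ventricle, the tilted one, overlaps the lowest atria. The log2 difference was 0.60 ± 0.20 (SE, adjusted p = 0.0156), and it was 0.72 without the tilted libraries (adjusted p = 1.71e-05). Higher levels in the room-air atrium were found for 28.7% of all genes, and for 21.3% in all 4 length fits, where Mrps6 was the only member. In hyperoxia the values were 50.9, 112, 59.5, 104 and 52.5 CPM in the atria and 24.2, 22.1, 28.3, 17.6 and 22.2 CPM in the ventricles. No atrium came below a ventricle, and the difference was 1.73 ± 0.21 (SE, adjusted p = 3.63e-07), or 1.25 without the tilted libraries. The Mrps6 model (GRCm38, chr16:92058270-92112227, plus strand) shares 159 exonic bases on the same strand with Slc5a3, a myo-inositol transporter gene. Slc5a3 was also higher in the atrium, by 0.99 in room air (adjusted p = 1.93e-05), at means of 10.9 CPM against 5.5 CPM. Reads in shared exons may have been left uncounted or split, so both values are uncertain.

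In the atrium the family was higher after hyperoxia than in room air. Of 77 members 66 were higher in the hyperoxic atrium at an adjusted p under 0.05, against 19.7% of all genes, and 0 were lower, against 24.2% of all genes (edgeR quasi-likelihood test; 0 members had a negative log2 difference, at any p). The median log2 difference (hyperoxia minus room air) was 0.58, against -0.06 over all genes, and single members ranged from 0.18 (Mrpl10) to 1.74 (Mrps18b). For 36 members every hyperoxic atrium lay above every room-air atrium, against 13.6% of all genes. The size rests in part on the 2 tilted hyperoxic atria. Without the tilted libraries 42 members were higher (median 0.30), against 17.1% of all genes, and with the length slope as a covariate 39 were higher (median 0.19), against 17.7%. In all 4 length fits 39 members were higher, against 13.1% of all genes. Reads of Y-linked genes outnumbered those of Xist in 5 of 5 room-air atria and 1 of 5 hyperoxic atria, and sex is not in the labels. With the Y-linked share and the length slope both as covariates 17 members were higher, against 9.39% of all genes. Marker levels moved with oxygen in the atrium as well. The summed fibroblast markers were 1507 to 2099 CPM in the hyperoxic atrium and 2940 to 3664 CPM in the room-air atrium, although 1 of the 5, Tcf21, was higher (log2 difference 0.25, adjusted p = 0.0220). Endothelial markers were lower at 484 to 719 against 814 to 979 CPM. Markers of macrophages (159 to 217 against 123 to 138 CPM) and epicardium (385 to 423 against 227 to 361 CPM) summed higher. Of these, Csf1r and Mrc1 of macrophages and Upk3b and Msln of the epicardium did not pass. Of 4 brown adipocyte markers only Cidea could be tested, and the other 3 stayed under 1 CPM in every atrium. Cidea was higher (log2 difference 1.27, adjusted p = 4.52e-05), at means of 9.3 against 3.9 CPM. The markers of cardiomyocytes of both chambers overlapped at 21280 to 29980 and 23970 to 30270 CPM. Among them, Ryr2 (-0.88, adjusted p = 2.33e-05) and Myh6 (-0.47, adjusted p = 0.00572) were lower. Actc1 was higher (0.33, adjusted p = 0.0348), and Tnnt2 and Ttn did not pass. Smooth muscle sums overlapped (458 to 684 against 375 to 482 CPM): Tagln was higher, Myh11 and Smtn were lower and Cnn1 did not pass. Ventricular sums overlapped (388.7 to 777.5 against 485 to 917.7 CPM): Myl2, Irx4, Hey2 and Mpped2 were lower and Myl3 did not pass. The 5 atrial markers summed to 25950 to 50100 against 17750 to 22900 CPM, mostly through Nppa, the atrial natriuretic peptide gene (means of 20880 and 6786 CPM). Of the others, Bmp10 was higher at a low level, and Myl7 (0.07, adjusted p = 0.957), Sln (-0.56, adjusted p = 0.596) and Myl4 (0.61, adjusted p = 0.368) did not pass. The part of cell composition was not tested.

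The rise ran through the role classes. Over all genes, 19.7% were higher with all libraries and 17.1% without the tilted ones. In the large subunit 25 of 30 proteins with a bacterial counterpart were higher after hyperoxia (median log2 difference 0.58) and 18 of 20 proteins specific to mitochondria (median 0.53). In the small subunit the counts were 13 of 17 (median 0.66) and 9 of 9 (median 0.71). They were 17 of 30, 10 of 20, 10 of 17 and 5 of 9 without the tilted libraries. Mrps36, of the oxoglutarate dehydrogenase complex, differed by 0.40 (adjusted p = 0.0126).

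**Figure D2:**
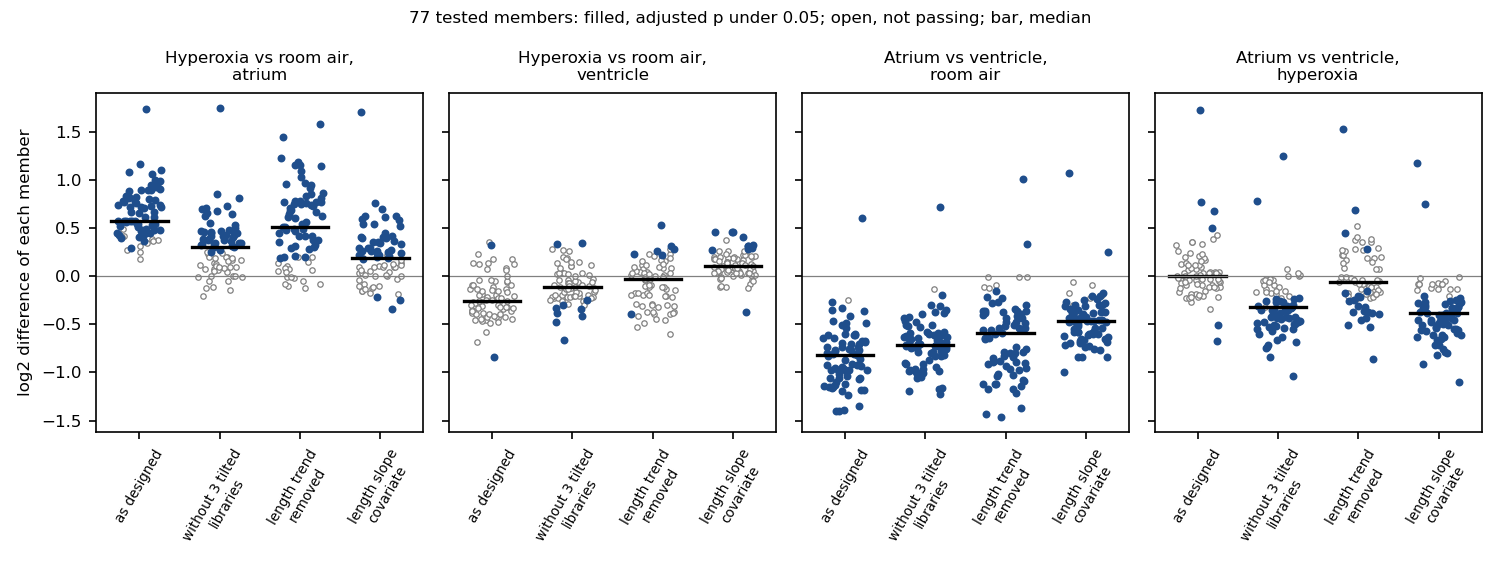
Log2 difference of each of the 77 tested members (points) in 4 comparisons under 4 ways of treating transcript length; filled points passed at an adjusted p under 0.05, open points did not, and bars are medians. The lower level in the room-air atrium keeps its sign in each way (medians from -0.82 to -0.46), whereas the ventricular median moves from -0.25 to 0.10 and crosses 0.

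Mrps18b was the member with the largest response in the atrium. It encodes a small-subunit protein that is 1 of 3 mammalian relatives of a single bacterial protein. Its levels were 10.3, 10.3, 10.8, 10.8 and 8.09 CPM in the room-air atria and 30.0, 27.9, 38.3, 38.7 and 32.6 CPM in the hyperoxic atria. The groups are far apart, and the tilted libraries 2 and 4 hold the lowest and the highest value of their group. The log2 difference was 1.74 ± 0.13 (SE, adjusted p = 7.76e-10), a 3.34-fold rise. It was 1.75 without the tilted libraries, 1.71 with the slope covariate and 1.68 with the Y-linked share and slope covariates (adjusted p = 1.06e-06). The gene lies on the minus strand of chromosome 17 (GRCm38, chr17:35910379-35916389, ENSMUSG00000024436.16). A model on the opposite strand, Gm16279, shares 638 exonic bases and stayed under 1 CPM on average in each group. Its relatives moved less: Mrps18a, whose protein sits in the large subunit, differed by 0.74 (adjusted p = 8.68e-04; 0.41 without the tilted libraries) and Mrps18c by 0.73 (adjusted p = 0.00926). For Mrps18c the value without the tilted libraries was 0.20 (adjusted p = 0.227).

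Mrps2 had the smallest standard error of the family in the atrium. Its levels were 50.1, 53.9, 52.8, 51.8 and 49.8 CPM in the hyperoxic atria, against 31.2 to 33.8 CPM in the room-air atria given above. The tilted libraries 2 and 4 lie close to the other 3. The log2 difference was 0.67 ± 0.07 (SE, adjusted p = 7.37e-08), and 0.65 without the tilted libraries. Mrps5, another small-subunit protein with a bacterial counterpart, stood at 39.2, 41.5, 39.9, 40.6 and 34.1 CPM in room air and 52.4, 63.6, 58.7, 58.6 and 58.5 CPM in hyperoxia. The groups do not overlap, and the difference was 0.58 ± 0.08 (SE, adjusted p = 5.79e-06). Mrps18b, Mrps2 and Mrps5 were the 3 tested members that did not have both tilted atria above the other 3.

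The starts of 3 genes the results turn on are shown as the RefSeq promoter windows of GRCm38.p6, 250 bases before to 50 after the annotated start. They are Mrps18b for the largest atrial response, Mrps2 for the smallest error, and Mrps6 for the opposite chamber pattern. Capitals mark matches to cores of factors that regulate nuclear genes of mitochondria: NRF1 (GCATGCGC), the ETS family that includes GABPA (CCGGAAG) and YY1 (AAGATGGC), each on either strand. The windows are chr17:35916391-35916690 (minus strand), chr2:28467816-28468115 (plus strand) and chr16:92058086-92058385 (plus strand).
Mrps18b: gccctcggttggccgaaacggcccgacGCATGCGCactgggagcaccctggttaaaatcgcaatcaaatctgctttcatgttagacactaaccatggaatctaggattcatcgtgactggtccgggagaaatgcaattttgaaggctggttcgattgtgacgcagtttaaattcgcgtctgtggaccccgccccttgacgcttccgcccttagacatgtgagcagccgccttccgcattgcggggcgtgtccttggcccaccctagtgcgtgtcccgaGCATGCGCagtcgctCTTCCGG
Mrps2: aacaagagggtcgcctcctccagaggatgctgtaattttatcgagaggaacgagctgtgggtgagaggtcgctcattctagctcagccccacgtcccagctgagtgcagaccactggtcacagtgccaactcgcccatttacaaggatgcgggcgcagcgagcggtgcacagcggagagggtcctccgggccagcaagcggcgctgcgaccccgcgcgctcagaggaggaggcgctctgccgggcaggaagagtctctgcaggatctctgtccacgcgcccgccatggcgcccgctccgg
Mrps6: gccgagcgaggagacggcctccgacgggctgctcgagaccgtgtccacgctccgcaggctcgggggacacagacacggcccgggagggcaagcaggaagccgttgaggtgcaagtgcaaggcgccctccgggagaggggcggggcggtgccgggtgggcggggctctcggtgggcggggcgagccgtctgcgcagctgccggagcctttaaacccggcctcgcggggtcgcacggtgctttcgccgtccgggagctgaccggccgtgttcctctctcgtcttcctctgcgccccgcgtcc
The Mrps18b window holds the NRF1 core 2 times and the reverse complement of the ETS core once, at its end. The windows of Mrps2 and Mrps6 hold none of these letters, which says only that these cores are not in these 300 bases. Of the 78 members 69 had a window, 75 windows in all. The ETS core was in 34.7% of the members' windows, in 15.3% of windows of all tested genes and in 8.86% of all windows. The NRF1 core was in 10.7%, 4.52% and 2.71%, and the YY1 core was in 16.0%, 3.84% and 2.75%. An E-box (CACGTG) was in 9.33%, 9.33% and 7.15%, and TATAAA was in 6.67%, 7.87% and 13.6%. These are matches of letters and not measured binding sites.

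In the large subunit, Mrpl19 had the smallest p in the atrium. This protein with a bacterial counterpart stood at 21.5, 19.9, 21.3, 22.3 and 21.2 CPM in room air and 36.1, 46.1, 43.0, 50.3 and 35.9 CPM in hyperoxia. The groups do not overlap, and untilted library 3 lies near tilted library 2. The log2 difference was 0.99 ± 0.12 (SE, adjusted p = 9.57e-07), and 0.85 without the tilted libraries. The model shares 1962 exonic bases with Gcfc2 on the opposite strand, which did not pass (log2 difference -0.10). Mrpl15, also with a bacterial counterpart, stood at 46.8, 43.0, 42.0, 47.9 and 38.6 CPM in room air and 71.5, 129, 84.7, 132 and 73.6 CPM in hyperoxia. Here the tilted libraries are far above the rest, and the difference of 1.17 ± 0.17 (SE, adjusted p = 1.07e-05) became 0.81 without them (adjusted p = 1.74e-07). Mrpl38, specific to mitochondria, stood at 43.2 CPM or less in room air (median 37.7) and 57.0 to 92.1 CPM in hyperoxia (median 69.8), a difference of 0.90 ± 0.13 (SE, adjusted p = 9.35e-06). It was 0.71 without the tilted libraries.

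Mrpl12 shows how far the tilted libraries reach. It stood at 91.2 to 134 CPM in the room-air atria (median 112) and at 157, 344, 177, 330 and 155 CPM in the hyperoxic atria. The log2 difference was 1.06 ± 0.23 (SE, adjusted p = 7.42e-04), and 0.55 without the tilted libraries (adjusted p = 0.00372). Mrpl58 went from 0.77 to 0.30 (adjusted p = 0.0189), and Mrpl3 from 0.54 to 0.39 (adjusted p = 8.91e-04). Mrps22 went from 0.72 to 0.48 (adjusted p = 6.06e-04). For other members the difference was no longer past the threshold. Mrpl44 went from 0.48 (adjusted p = 0.00647) to 0.20 (adjusted p = 0.0865), Mrps34 from 0.72 to 0.25 (adjusted p = 0.0669), and Mrpl18 from 0.48 to 0.09 (adjusted p = 0.472). Mrps36 went to 0.17 (adjusted p = 0.235).

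Mrps12, part of the decoding centre, and Mrpl54 were high only in the tilted hyperoxic atria. Mrps12 stood at 30.5, 28.9, 26.8, 34.4 and 28.4 CPM in room air and 27.8, 55.2, 29.5, 61.5 and 25.01 CPM in hyperoxia. The untilted libraries 1, 3 and 5 lie within or under the room-air range. The log2 difference of 0.42 (adjusted p = 0.101) became -0.12 without the tilted libraries (adjusted p = 0.445). Mrpl54 stood at 48.8, 106, 55.7, 90.4 and 49.1 CPM in the hyperoxic atria, against 42.8 to 58.4 CPM in room air. Its difference of 0.52 (adjusted p = 0.0415) became 0.07 (adjusted p = 0.687). Mrps21, a small-subunit protein with a bacterial counterpart, went from 0.39 (adjusted p = 0.103) to -0.05 (adjusted p = 0.758).

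**Figure D3:**
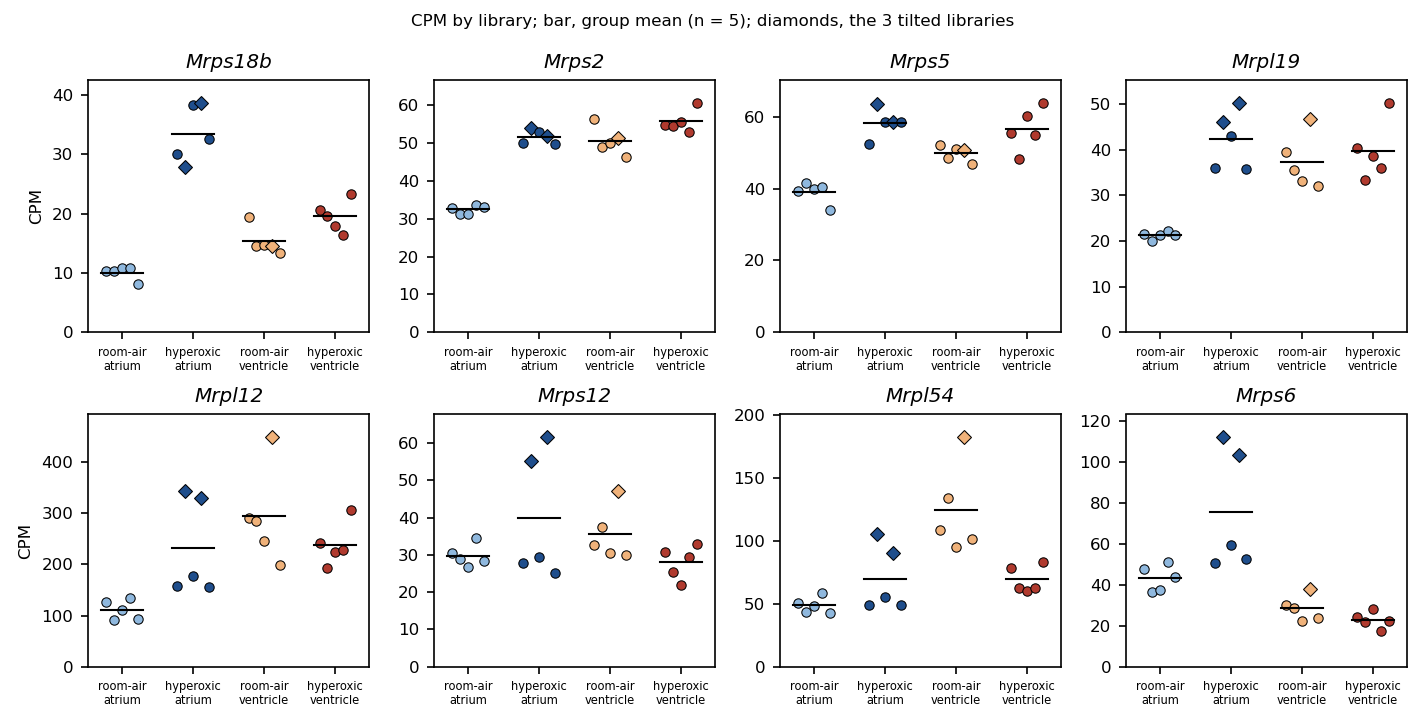
CPM in each of the 20 libraries for 8 members, each panel with its own axis from 0; bars are group means (n = 5) and diamonds are the 3 tilted libraries. Mrps18b, Mrps2 and Mrps5 are higher in every hyperoxic atrium than in every room-air atrium, while for Mrps12 and Mrpl54 only the 2 tilted atria stand above the room-air atria, and Mrps6 is the one panel whose atrial mean is above the ventricular mean in both conditions.

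Within the family the atrial response was set against transcript length, as a description with no test of the difference. Ordered by the length of the longest coding transcript, 24 of the 25 longest were higher (median log2 difference 0.77), 24 of the 27 in between (median 0.58) and 18 of the 25 shortest (median 0.53). The counts became 19 of 25 (median 0.41), 16 of 27 (median 0.35) and 7 of 25 (median 0.13) when the tilted libraries were left out. Over all genes, of every length, 19.7% and 17.1% were higher with and without these libraries. The correlation of the difference with log2 length of the coding transcript across the 77 genes was 0.23 (Pearson) and 0.29 (Spearman), and the genes share libraries. Without the tilted libraries it was 0.35 and 0.45, and with the length trend removed it was 0.56 and 0.58. The trend is fitted on all annotated exons. By that length the correlation went from 0.28 and 0.34 to 0.774 and 0.805. In the atrium the correlation within the family was thus stronger after the trend of all genes was removed. By all annotated exons it went from 0.331 to -0.468 (Pearson) for the response of the ventricle. Between the room-air chambers it went from 0.075 to -0.657. The removal uses this same length, and its part in these correlations was not tested. For the response of the ventricle the correlation with the coding transcript was 0.37 and 0.41, and -0.20 and -0.15 with the trend removed. For the atrial minus the ventricular response it was -0.08 and -0.07 with all libraries, 0.10 and 0.14 without the tilted ones, and 0.52 and 0.49 with the length trend removed.

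**Figure D4:**
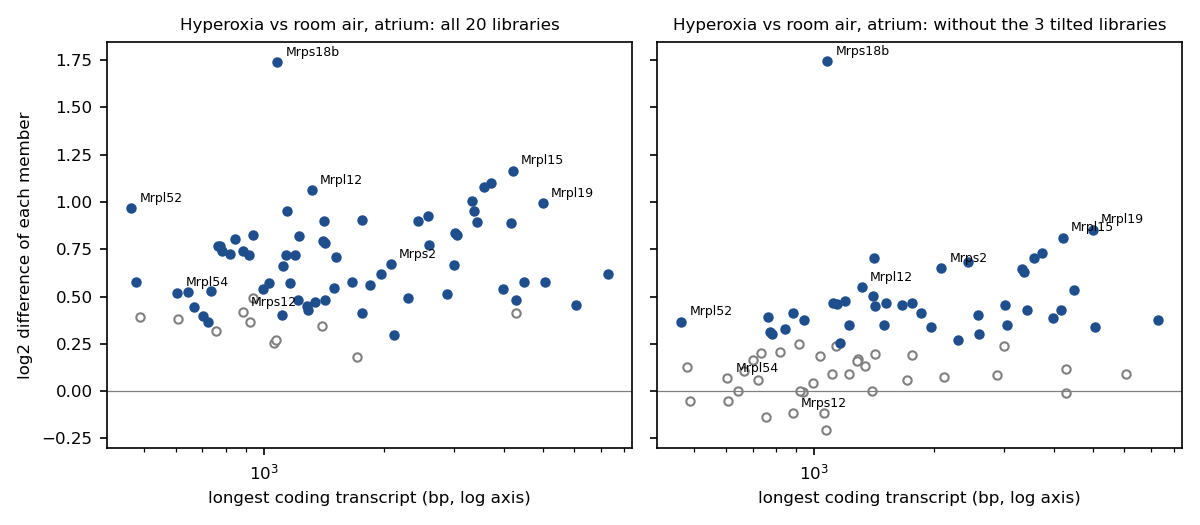
Log2 difference between hyperoxic and room-air atrium for each of the 77 tested members against the length of its longest coding transcript (log axis), with all 20 libraries (left) and without the 3 tilted ones (right); filled points passed at an adjusted p under 0.05. Mrps18b stands alone at 1.74 and 1.75 in both panels, and most points under 1000 bases are open on the right.

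In the ventricle few members differed between hyperoxia and room air. Mrpl3 was the 1 member of 77 that was higher, against 5.64% of all genes, and Mrpl54 the 1 member that was lower, against 5.28% of all genes. The median log2 difference (hyperoxia minus room air) was -0.25, against -0.01 over all genes, and 64 members had a negative value. Mrpl3 stood at 67.5, 68.4, 67.7, 71.1 and 62.1 CPM in room air and at 76.5, 75.5, 92.4, 79.1 and 99.1 CPM in hyperoxia. Every hyperoxic ventricle lies above every room-air ventricle, and the difference was 0.33 ± 0.10 (SE, adjusted p = 0.0347), or 0.35 without the tilted library (adjusted p = 0.00473). With the length trend of each library removed it was 0.23 (adjusted p = 0.241). Mrpl54 stood at 109, 134, 95.6, 182 and 101 CPM in room air and at 78.4, 63.0, 60.5, 62.9 and 83.3 CPM in hyperoxia. The groups do not overlap, and the difference was -0.84 ± 0.20 (SE, adjusted p = 0.0139). It was -0.66 without the tilted library (adjusted p = 4.23e-04) and -0.37 with the slope covariate (adjusted p = 0.00355). Mrpl54 was the 1 member lower in all 4 length fits, against 2.38% of all genes. Mrpl3 shares 248 exonic bases on the same strand with the model Gm38077, at means under 2 CPM. Gm38077 itself was higher in the hyperoxic ventricle (log2 difference 1.71, adjusted p = 0.0408). Ventricular markers (Myl2, Myl3, Irx4, Hey2 and Mpped2) summed to 20660 to 23670 CPM in hyperoxia and 22370 to 41470 CPM in room air, and atrial markers to 216 to 838 and 1015 to 1924 CPM. Of the ventricular markers only Hey2 passed the edgeR test, as higher in hyperoxia (log2 difference 0.985, adjusted p = 6.11e-04). Of the atrial markers Myl4 and Nppa passed as lower. Bmp10 passed as higher at a low level (4.06, adjusted p = 0.00291), and Myl7 and Sln did not pass. Y-linked reads outnumbered Xist in 5 of 5 room-air and 2 of 5 hyperoxic ventricles. With the Y-linked share as a covariate neither call held: Mrpl3 was 0.44 (adjusted p = 0.0737) and Mrpl54 was -0.56 (adjusted p = 0.318). The part of the cell markers was not tested.

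How many ventricular members pass depends on how length is treated. Without the tilted libraries 2 were higher, against 10.3% of all genes, and 8 were lower, against 9.13%, with a median of -0.11. With the length slope as a covariate 10 were higher, against 6.36% of all genes, and the median turned to 0.10. Since slope and oxygen do not overlap in the ventricle, no fit separates them.

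The atrial minus the ventricular response was above 0 for 77 of 77 members with all libraries, for 75 without the tilted ones and for 48 with the slope as covariate. The difference between responses itself passed for 68 members, against 17.0% of all genes in this direction, and for 0 members in the other direction, against 19.5% of all genes; its median was 0.88 on the log2 scale. Mrps18b had the smallest p: its difference between responses was 1.39 ± 0.17 (SE, adjusted p = 7.15e-06). In the ventricle it stood at 19.5, 14.6, 14.7, 14.6 and 13.4 CPM in room air and 20.6, 19.6, 18.0, 16.4 and 23.4 CPM in hyperoxia, which overlap. Mrps2 differed by 0.53 ± 0.10 (SE, adjusted p = 2.61e-04), with ventricular levels of 46.4 to 56.4 CPM in room air and 52.9 to 60.6 CPM in hyperoxia. Mrpl38 differed by 1.04 ± 0.18 (SE, adjusted p = 2.36e-04), and Mrps10, a small-subunit protein with a bacterial counterpart, by 0.83 ± 0.15 (SE, adjusted p = 4.20e-04). Tilted libraries enter both sides of this contrast. Without them 44 members passed (median 0.38), against 11.0% of all genes, and with the slope covariate 8 were higher (median 0.09), against 6.7% of all genes, and 2 were lower. With the Y-linked share added 4 were higher, against 5.69% of all genes. In all 4 length fits 8 members were higher, against 4.38% of all genes: Mrps18b, Mrpl38, Mrps2, Mrps10, Mrpl19, Mrpl35, Mrpl15 and Mrpl52. Mrpl35 is named here after its values were seen.

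After hyperoxia few members passed between the chambers in the fit with all libraries, and many passed once the tilted libraries were left out. In the fit with all libraries 4 members were higher in the hyperoxic atrium than in the hyperoxic ventricle, against 25.2% of all genes, and 2 were lower, against 23.6% of all genes. The median log2 difference was 0.00. Without the tilted libraries 50 members were lower in the atrium (median -0.32), against 25.6% of all genes, and 2 were higher, against 25.5%. With the slope covariate, which is relative to the average of each chamber, 59 were lower, against 27.4% of all genes. Mrps6 and Mrps18b were higher in all 4 length fits, against 20.6% of all genes, and Mrpl36 and Mrpl42 were lower in all 4, against 19.0%. For Mrps18b the difference was 0.77 ± 0.12 (SE, adjusted p = 1.54e-05), from values of 27.9 CPM or more in each atrium and 23.4 CPM or less in each ventricle. In room air the same gene was lower in the atrium, by -0.61 ± 0.12 (SE, adjusted p = 2.77e-04), so its order between the chambers turned. Mrpl36 stood at 17.3, 31.2, 17.9, 31.0 and 18.9 CPM in the hyperoxic atria and at 38.1, 40.8, 32.6, 38.4 and 35.2 CPM in the hyperoxic ventricles. Even the tilted atria lie below every ventricle, and the difference was -0.67 ± 0.17 (SE, adjusted p = 0.00214), or -1.04 without them. Ndufs6 on its opposite strand was likewise lower in the hyperoxic atrium, by -0.80 (adjusted p = 0.0102). Mrpl42 was lower by -0.51 ± 0.16 (SE, adjusted p = 0.0113), or -0.84 without the tilted libraries. Mrps12 and Mrpl52 passed as higher in the fit with all libraries (0.50, adjusted p = 0.0468, and 0.68, adjusted p = 0.0207), and neither passed without the tilted libraries (-0.03 and 0.08).

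Many genes that work with the mitochondrial ribosome were also higher in the hyperoxic atrium, where 19.7% of all genes were, or 17.1% without the tilted libraries. The 6 mitoribosomal proteins whose symbols fall outside the rule (Dap3, Ptcd3, Chchd1, Aurkaip1, Gadd45gip1 and Oxa1l, the last an inner-membrane insertase that binds the ribosome) were all higher in the hyperoxic atrium (median log2 difference 0.60), and 3 of 6 without the tilted libraries. Chchd1 had the largest value at 1.22 (adjusted p = 9.72e-05), from a mean of 47.9 CPM in room air to 112 CPM in hyperoxia, and 0.72 without the tilted libraries. Of 25 assembly factors 15 were higher (median 0.39), and 9 were higher and 1 lower (Rbfa, named after its value was seen) without the tilted libraries. Mrm3, which methylates the large ribosomal RNA, rose by 1.55 (adjusted p = 3.52e-07), from 7.94 to 23.3 CPM, and by 1.28 without the tilted libraries. C1qbp, a matrix protein needed for mitochondrial translation, rose by 1.15 (adjusted p = 1.92e-06), and Rpusd4, a pseudouridine synthase of the large ribosomal RNA, by 0.97 (adjusted p = 2.31e-07). Of 14 tested translation factors 11 were higher (median 0.35), and 7 without the tilted libraries (median 0.24). Slirp, the binding partner of Lrpprc, went from 0.66 (adjusted p = 0.0186) to 0.10 (adjusted p = 0.507). Lrpprc, which stabilises mitochondrial mRNAs, rose by 0.66 (adjusted p = 4.76e-05) and Gfm1, an elongation factor, by 0.40 (adjusted p = 4.11e-04). In the ventricle Taco1, an activator of the translation of a cytochrome oxidase subunit, rose by 1.07 (adjusted p = 2.88e-04), from 7.72 to 16.2 CPM, and in the atrium by 0.55 (adjusted p = 0.00439).

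The mRNAs that this ribosome translates had a median near 0 between the hyperoxic and the room-air atrium. Of 13 mitochondrially encoded mRNAs 8 could be tested, and 1 was higher after hyperoxia, mt-Nd3, at means under 1 CPM in every group. Its adjusted p was 0.0802 without the tilted libraries. That median was -0.03 on the log2 scale, and mt-Co1 had -0.08 (adjusted p = 0.785). Between the chambers in room air the mRNAs and the ribosomal proteins lay in the same direction: 8 of 8 were lower in the atrium, against 26.3% of all genes, with a median of -1.47, and mt-Nd1 was lower by -1.85 (adjusted p = 2.24e-09). Poly(A) selection catches these mRNAs to unequal degrees, so their levels relative to each other are not compared. Among 12 regulators of mitochondrial biogenesis 6 were higher and 1 was lower in the hyperoxic atrium (median 0.17), against 19.7% and 24.2% of all genes. Pprc1, a coactivator of the PGC-1 family, rose by 1.15 (adjusted p = 4.69e-07), Myc by 1.12 (adjusted p = 6.80e-07), Esrra by 0.60 (adjusted p = 3.30e-05) and Tfam, which packages mitochondrial DNA, by 0.53 (adjusted p = 1.59e-04). Gabpa, an ETS factor named after its value was seen, was the 1 that fell, by 0.56 (adjusted p = 0.00310), or by 0.32 without the tilted libraries (adjusted p = 0.00615). The proteins of the cytosolic ribosome, listed only for comparison, were higher for 76 of 81 tested genes in the hyperoxic atrium (median 0.82), and for 59 without the tilted libraries (median 0.33). They too are short, and a rise particular to the mitochondrial ribosome was not tested.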

How the data were processed

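The authors deposited raw read counts per gene symbol, 1 table per library. The submitters' processing notes name the build GRCm38.p6 and, in no order, STAR 2.7.6a, featureCounts, Subread 2.0.1, Salmon 1.3.0 and fastp 0.20.1. Which gene annotation was counted, and whether by strand, is not given in the sources used here. Sex is not in the labels. All 20 libraries were fitted in R 4.3.3 with edgeR 4.0.16 (filterByExpr, TMM, robust quasi-likelihood F-test, 1 coefficient per group). Benjamini-Hochberg adjustment ran over 16598 genes with a threshold of 0.05. A standard error is the size of a log2 difference over the square root of its F statistic. Total counts ranged from 26510081 to 38244117, and libraries of 1 group differed by a chi-square per degree of freedom of at least 13.26, so none was a copy of another. The p-values measure the spread between libraries of a group, which includes the length tilt of single libraries as well as differences between mice. Whether same-numbered atria and ventricles came from 1 mouse is not known here, and the chamber comparisons treat them as independent.

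Lengths and positions are from GENCODE M21 of the same build. Exonic bases are shared with another gene by 33 of the 78 members, on the same strand by 8. The length trend was removed with a natural spline of log2 length in each library. The fit was also run on simulated counts, with and without a tilt by exon length, and the outcome is not given here. The simulated tilt uses the same exon length as the trend removal. It therefore cannot test members whose coding transcript is much shorter than their exons. Other settings were RLE and upper-quartile scaling, other filters, DESeq2 1.42.0, limma 3.58.1 with voom and quality weights, length and Y-linked covariates, replicate blocks and leaving out libraries. Named members were those with the 4 smallest p in each direction of a comparison, up to 6 that passed in all 4 length fits, the 4 highest and 4 lowest per kilobase of exon, and 12 named for their roles. From each other list up to 4 genes with the smallest p were named. Members and lists were chosen with earlier results of these data known.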

Additional observations from a re-analysis of the deposited data

Results flagged for a closer look

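In single groups of 5 libraries, 1 library stood apart from the other 4 by Dixon's criterion for the following of the 28 named members. Chance alone gives about 1 in 20 groups. Members that were not named are left out of this list. Mrpl51, for instance, was also high in room-air ventricle 4 (382 CPM, the others 171 to 226). Room-air ventricle 4, a tilted library, was the high one for Mrpl15 (115 CPM, the others 63.6 to 75.7), Mrpl18 (209 CPM, the others 138 to 154), Mrpl36 (68.7 CPM, the others 40.7 to 45.1), Mrpl52 (164 CPM, the others 80.5 to 103) and Mrps18a (122 CPM, the others 67.9 to 83.2). Mrpl44 was high in room-air atrium 4 (36.5 CPM, the others 30.1 to 31.9) and in hyperoxic ventricle 4 (52.5 CPM, the others 39.3 to 42.2). Mrps18b was low in room-air atrium 5 (8.09 CPM, the others 10.3 to 10.8) and high in room-air ventricle 1 (19.5 CPM, the others 13.4 to 14.7).

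The response to hyperoxia differed between the chambers, by the edgeR test of the difference itself, for 68 members. The log2 difference between the responses (atrium minus ventricle) was 1.39 for Mrps18b, 1.04 for Mrpl38, 0.83 for Mrps10 and 0.53 for Mrps2.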

How the results depend on the processing

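Across 37 other settings, 1949 values of named members kept their direction and side of the threshold, 110 no longer passed, 5 newly passed and 21 changed sign. The count of members differing between the chambers in room air stayed within 1.5 times under every setting run. Members higher in the hyperoxic atrium (66 as designed) numbered 42 without the tilted libraries, 39 with the length slope as covariate, 17 with the Y-linked share added and 38 with the replicate block and the slope. The range with 1 library left out was 50 to 73. Members lower there (0 as designed) numbered 3, 1 and 4 in the last 3 fits, 1 without the tilted libraries and with the length trend removed, and 0 to 0 with 1 library left out. For the response of the atrium minus that of the ventricle (68) the counts were 44, 10, 5 and 8 in the same 4 fits and 41 without the tilted libraries and with the trend removed, with 56 to 73 when 1 library was left out. In the ventricle, members higher (1) numbered 0 with upper-quartile scaling, without a filter, with the Y-linked covariate, with the replicate block and without the 3 ventricles that stood apart (hyperoxic 4, room-air 1 and 4). They numbered 2 without the tilted libraries, 3 with voom, 4 with block and slope, 5 with Y-linked share and slope, 6 with the trend removed, 9 with the trend removed and without the tilted libraries, and 10 with the slope (0 to 2 with 1 library left out). Members lower there (1) numbered 0 with the Y-linked covariate and without those 3 ventricles, 4 with DESeq2, 6 with voom and with the trend removed without the tilted libraries, 8 without the tilted libraries, 9 with only the libraries compared and 10 with the replicate block (1 to 4 with 1 left out). For the chambers in hyperoxia (6) the counts were 11 with the block, 22 with the trend removed, 48 with voom, 50 and 52 without the tilted libraries with and without the trend removed, 52 with block and slope, and 61 with the slope, with or without the Y-linked share (4 to 10 with 1 left out).

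The ventricular median (-0.25) became 0.103 with the slope, 0.089 with the Y-linked share and slope and 0.076 with block and slope. With these same 3 fits Mrpl54 in the atrium became -0.081, -0.013 and -0.09 and Mrpl52 between the hyperoxic chambers -0.023, -0.007 and -0.04. With the Y-linked share and slope, Mrpl18, Mrpl23 and Mrps18c in the atrium became -0.079, -0.156 and -0.059. Mrps12 in the atrium became -0.22 with the slope and -0.27 with block and slope. Mrps12 between the hyperoxic chambers became -0.026 with voom, -0.034 without the tilted libraries, -0.085 with the slope, -0.10 with the Y-linked share added and -0.12 with block and slope. Between the room-air chambers it became 0.25, 0.33, 0.26, 0.30 and 0.34 in turn with the slope, the trend removed, the Y-linked share and slope, block and slope, and the trend removed without the tilted libraries, and passed as higher in each of these 5 fits (adjusted p = 0.0135, 0.00332, 0.0148, 0.0106 and 6.87e-04). The cause of these changes was not tested.

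Same-numbered libraries did not deviate together throughout, so the numbers were not taken as pairs. Between atrium and ventricle of 1 oxygen level the correlations ran from -0.05 to 0.57. For room-air numbers 3, 4 and 5 and hyperoxic number 5 the atrium matched the ventricle of its own number best. Between the oxygen levels of 1 chamber the correlations ran from -0.34 to 0.64. Here hyperoxic atria 3 and 4 matched the room-air atrium of their own number best. Hyperoxic ventricles 1 and 4 likewise matched the room-air ventricle of their own number best. Whether same-numbered chambers came from 1 mouse is not known here, and the fit as designed treats them as independent. With the replicate number as a block 69 members were higher in the atrium. The removal of the tilted libraries together with the length trend was chosen after seeing the data.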
